A study of Mus musculus with 10 samples.

Results

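The genes described here are 4 transglutaminases (Tgm1, Tgm2, Tgm3 and Tgm5) and 6 scaffold and partner genes of the cornified envelope (Evpl, Ppl, Scel, Cnfn, Sbsn and Krtdap). They were taken by gene name from the deposited counts table of protein-coding genes, in which all 10 were found among 22740 genes. Their RNA was measured in 10 RNA-seq libraries of mouse oesophagus, 5 labelled Grhl3 KO and 5 labelled wild type. Every mouse was C57BL/6 and was given 4-NQO, 4-nitroquinoline 1-oxide, a carcinogen whose metabolites damage DNA and which gives mice squamous tumours of the tongue and oesophagus. The series title compares tumours of conditional Grhl3 knockouts with wild type, and the columns of the Grhl3 KO group carry "L2Cre"; the sources used here name neither the promoter of the Cre nor the cells in which it is active. The tissue is labelled as oesophageal tumour in the Grhl3 KO group and as oesophageal tissue in the wild-type group, while the design text speaks of tumours in both, so that genotype and tissue label cannot be told apart. The labels give no age or sex. Libraries are named below by group and by the sample number in their title.

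The cornified envelope is a protein shell laid down under the plasma membrane of squamous epithelial cells late in their differentiation. Envoplakin (Evpl) and periplakin (Ppl), both of the plakin family, form the first scaffold at the membrane, and transglutaminases then bind further proteins to it with isopeptide crosslinks in a calcium-dependent reaction. Grhl3 is a grainyhead-like transcription factor of squamous epithelia, known as an activator of Tgm1 in the epidermis.

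Grhl3 itself was at 135, 234, 191, 235 and 317 CPM (counts per M of scaled library size, with M for mega) in Grhl3 KO libraries 1026, 1027, 1035, 1036 and 1043. It was at 363, 114, 164, 283 and 109 CPM in wild-type libraries 1028, 1048, 1528, 1555 and 1561. The means of 222 ± 66.8 and 207 ± 112 CPM (SD, n = 5 each) were within their spread, and the difference did not pass edgeR's quasi-likelihood test (log2 fold change 0.11, SE 0.35, 95% limits -0.67 to 0.88, adjusted p = 0.979). The counts of the whole gene do not separate the groups, and whether a deleted exon is missing from the reads cannot be read from them. Group names below are therefore those of the labels. The libraries held between 15.3 and 32.9 M counts. Squamous keratins were abundant in both groups, with Krt14 at 17838 ± 1079 CPM in the Grhl3 KO and 17185 ± 2914 CPM in the wild-type libraries. The summed level of 20 skeletal muscle markers ran from 844 to 6256 CPM in Grhl3 KO and from 1452 to 3234 CPM in wild type, and that of 14 pan-epithelial markers from 33722 to 38007 CPM and from 32648 to 42786 CPM. Y-linked genes summed to between 162 and 203 CPM in Grhl3 KO and to between 0.0527 and 177 CPM in wild type, being near 0 in wild-type libraries 1528 and 1555 and at 72.3 CPM in 1561, below the 154 CPM or more of every other library, and their part in the results was not tested.

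None of the 10 genes rose or fell between the groups at an edgeR adjusted p under 0.05. Over all 13731 genes tested, 11 passed that threshold (0.0801%, 4 higher and 7 lower in Grhl3 KO). At an unadjusted p under 0.05, 3 of the 10 were lower in Grhl3 KO (Sbsn, Ppl and Cnfn), beside 983 of all genes tested (7.16%). DESeq2 called 1 of the 10, Sbsn, beside 118 of all genes tested (0.859%), and limma voom called 0 of the 10 beside 1 of all (0.00728%). In each of the 10 genes the CPM values of the groups overlapped, whereas the groups were apart in 186 of all genes tested (1.35%). The fitted value was above 0 for 3 of the 10 and below 0 for 7, with a median log2 fold change of -0.15 against -0.00 over all genes tested. The 4 transglutaminases had a median of 0.06 (2 above and 2 below 0), and the 6 scaffold and partner genes a median of -0.69 (1 above and 5 below 0). In these bulk samples, fewer squamous cells and less RNA per cell cannot be told apart.

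**Figure D1:**
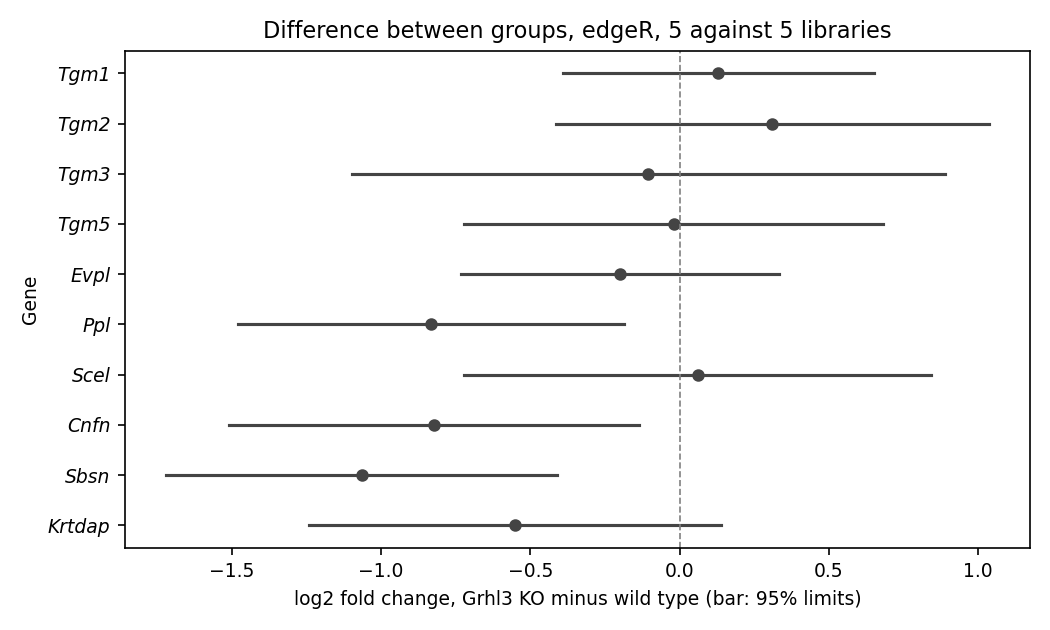
Log2 fold change of each gene (x axis, Grhl3 KO minus wild type; points, edgeR estimates; bars, 95% limits; 5 against 5 libraries). The bars of Ppl, Cnfn and Sbsn lie below 0, from -1.72 at the lower end of Sbsn to -0.14 at the upper end of Cnfn, and the other 7 cross it; no adjusted p is under 0.05.

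Tgm1, the membrane-anchored transglutaminase of keratinocytes, was at 597, 1114, 700.2, 1098 and 934 CPM in the Grhl3 KO libraries, in the order given above. The wild-type libraries held 879, 604, 808, 1197 and 572 CPM. Both groups spread over nearly the same range, and Tgm1 varied least of the 10 genes, 2.09-fold from the lowest to the highest library. The means of 889 ± 233 and 812 ± 252 CPM (SD, n = 5 each) differed by a log2 fold change of 0.13 (SE 0.24, edgeR adjusted p = 0.955). The 95% limits of -0.39 to 0.65 correspond to 0.763 and 1.57 times the wild-type level.

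Tgm3, a cytosolic transglutaminase of the upper squamous layers that is activated by proteolysis, varied most, 5.66-fold over the 10 libraries. Its CPM values were 718, 995, 669.8, 1119 and 2126 in Grhl3 KO and 2374, 419, 967, 1512 and 777 in wild type. The highest library of either group (1043 and 1028) stood well above the rest, and the lowest of all was wild-type 1048. The means were 1126 ± 590 and 1210.0 ± 761 CPM (SD, n = 5 each), with a log2 fold change of -0.10 (SE 0.45, edgeR adjusted p = 0.983). Its sign depended on single libraries, being -0.47 without Grhl3 KO library 1043 and 0.29 without wild-type library 1028.

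Tgm5, another epidermal transglutaminase, whose loss causes acral peeling of the skin in people, was far less abundant. Grhl3 KO libraries held 36.2, 37.6, 27.8, 29.4 and 60.0 CPM, and wild-type libraries 69.3, 26.3, 30.5, 45.1 and 22.2 CPM. Libraries 1043 and 1028 were again the highest of their groups. The log2 fold change was -0.02 (SE 0.32, 95% limits -0.72 to 0.68, edgeR adjusted p = 0.993).

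Tgm2, the widely expressed tissue transglutaminase, was the least abundant of the 10 per length. It was at 30.5, 16.3, 39.6, 15.2 and 47.5 CPM in Grhl3 KO and at 25.1, 21.2, 21.2, 36.0 and 16.6 CPM in wild type. The Grhl3 KO libraries fell on both sides of the wild-type ones, with 1027 and 1036 lowest and 1043 highest of all 10. The log2 fold change was 0.31 (SE 0.33, 95% limits -0.41 to 1.04, edgeR adjusted p = 0.910), and it was 0.08 without Grhl3 KO library 1043.

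Per length of the union of annotated exons, Tgm1 and Tgm3 made up nearly all of the RNA of the 4 transglutaminases. Tgm1 held 50.6% ± 9.13 of it in the Grhl3 KO libraries and 48.4% ± 11.1 in the wild-type libraries (SD, n = 5 each). Tgm3 held 46.0% ± 8.90 and 48.4% ± 11.4, Tgm5 2.18% ± 0.56 and 2.17% ± 0.41, and Tgm2 1.24% ± 0.71 and 1.001% ± 0.32. The balance of Tgm1 and Tgm3 moved between libraries rather than between groups. Tgm3 took 61.3% in Grhl3 KO library 1043 and 65.3% in wild-type library 1028, but 33.2% in wild-type library 1048. The other family members were scarce: F13a1, the factor XIII subunit of blood, passed the filter on low counts with 3.98 ± 1.27 CPM in the Grhl3 KO and 3.71 ± 1.43 CPM in the wild-type libraries (log2 fold change 0.10, edgeR adjusted p = 0.978). Tgm4, Tgm6 and Tgm7 were under the filter. Of these Tgm6 ran from 0.105 to 5.55 CPM in the wild-type libraries (mean 2.19 ± 2.61 CPM, SD, n = 5). In Grhl3 KO Tgm6 was at most 0.836 CPM (mean 0.285 ± 0.325 CPM, SD, n = 5), without a test.

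Evpl was at 234, 326, 252, 378 and 437 CPM in Grhl3 KO and at 498, 269, 404, 465 and 233 CPM in wild type. The groups shared most of their range. The means of 325 ± 84.9 and 374 ± 118 CPM (SD, n = 5 each) gave a log2 fold change of -0.20 (SE 0.24, 95% limits -0.73 to 0.33, edgeR adjusted p = 0.923).

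Ppl, the partner that forms heterodimers with envoplakin, was at 201, 279, 199, 282 and 328 CPM in Grhl3 KO and at 714, 283, 494, 573 and 233 CPM in wild type. Wild-type libraries 1028, 1528 and 1555 were above every Grhl3 KO library, and 1048 and 1561 lay within the Grhl3 KO range. The means of 258 ± 56.6 and 459 ± 201 CPM (SD, n = 5 each) gave a log2 fold change of -0.83 (SE 0.29, 95% limits -1.48 to -0.19), 1.78-fold lower in Grhl3 KO. Its unadjusted p of 0.0162 ranked 402 of the 13731 genes tested, and the edgeR adjusted p was 0.553. Over the alternatives the log2 fold change ran from -1.0002 to -0.53 and the adjusted p from 0.0809 to 0.848.

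The groups did not overlap in the proportion of Ppl to Evpl. Ppl counts per Evpl count were 0.857, 0.856, 0.787, 0.747 and 0.752 in Grhl3 KO and 1.43, 1.05, 1.22, 1.23 and 1.003 in wild type. The lowest wild-type library was above the highest Grhl3 KO library. The means were 0.800 ± 0.0541 and 1.19 ± 0.170 (SD, n = 5 each), and the log2 ratio of Evpl to Ppl was higher by 0.56 in Grhl3 KO. Per kb of exon the means were 0.741 ± 0.0501 and 1.10 ± 0.157. Of all other genes tested, 140 of 13730 (1.02%) kept the groups apart in their ratio to Evpl; in the ratio to Ppl, 668 of 13730 (4.87%) did. The ratio was looked at after the single levels had been seen, and a fit with the Evpl level of each library as a term, added at the same point, gave Ppl a log2 fold change of -0.53 (SE 0.10, edgeR adjusted p = 0.0809), which missed the threshold. Wild-type libraries 1028 and 1048, the only ones whose numbers fall in the series of the Grhl3 KO libraries (1026 to 1048), were also above the Grhl3 KO libraries.

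**Figure D2:**
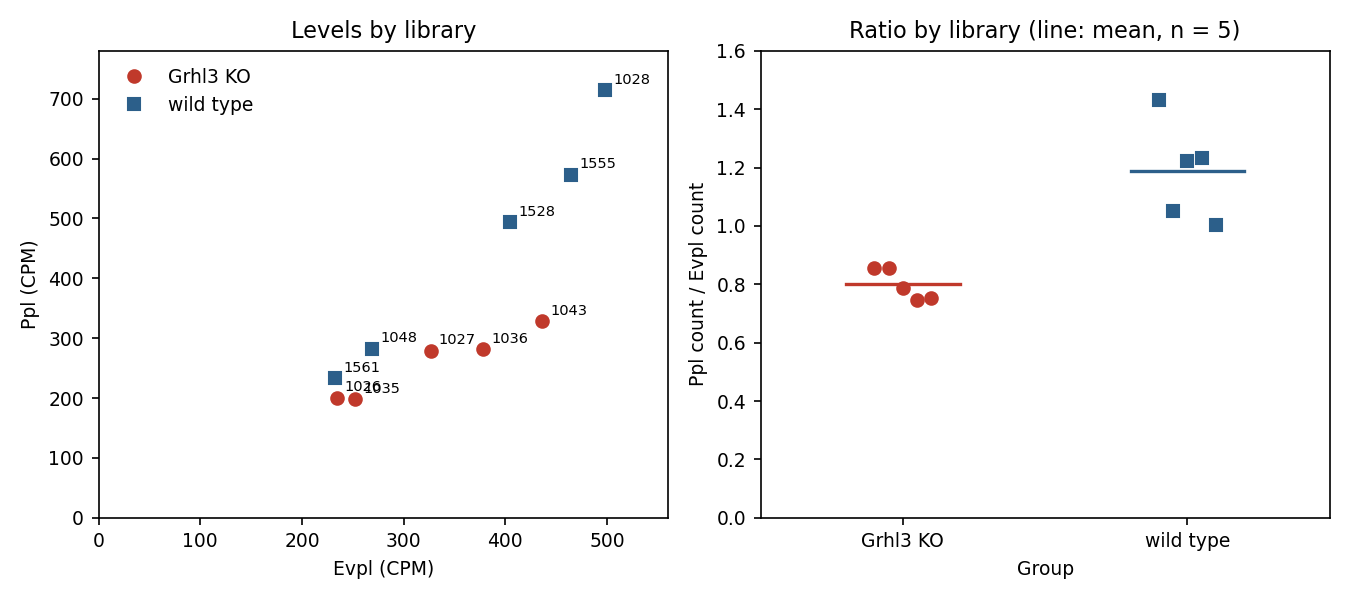
Left, Ppl against Evpl level of each library in CPM (circles, Grhl3 KO; squares, wild type; labels, sample numbers); right, Ppl count divided by Evpl count (points, libraries; lines, means, n = 5). At a given Evpl level the wild-type libraries have more Ppl, with ratios of 1.003 to 1.43 against 0.747 to 0.857 in Grhl3 KO.

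Scel, which encodes sciellin, a precursor protein of the envelope, was at 85.2, 133, 78.4, 139.7 and 156 CPM in Grhl3 KO and at 199, 83.9, 117, 126 and 40.8 CPM in wild type. The highest and the lowest of all 10 libraries were both wild type (1028 and 1561). The log2 fold change was 0.06 (SE 0.36, 95% limits -0.72 to 0.84, edgeR adjusted p = 0.989). It was -0.26 when only the libraries numbered 1026 to 1048 were used.

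Cnfn encodes cornifelin, a small envelope protein. Its level was 496, 949, 454, 854 and 992 CPM in Grhl3 KO and 1795, 622, 1442, 1674 and 1092 CPM in wild type. All wild-type libraries but 1048 were above every Grhl3 KO library. The means of 749 ± 255 and 1325 ± 476 CPM (SD, n = 5 each) gave a log2 fold change of -0.82 (SE 0.31, 95% limits -1.51 to -0.14), 1.77-fold lower in Grhl3 KO, with an unadjusted p of 0.0232 and an edgeR adjusted p of 0.613. Scel counts per Cnfn count ran from 0.140 to 0.173 in Grhl3 KO and from 0.0374 to 0.135 in wild type. This ratio too kept the groups apart, but the nearest libraries were close (0.140 in Grhl3 KO 1027 and 0.135 in wild-type 1048). Its mean log2 value was higher by 0.99 in Grhl3 KO. Of all other genes tested, 359 of 13730 (2.61%) kept the groups apart in their ratio to Cnfn and 69 (0.503%) in their ratio to Scel.

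Of the 45 ratios between the 10 genes, 6 kept the groups apart, and 5 of these had Ppl in them. Ratios to Ppl also kept the groups apart for 4.87% of all genes, more than ratios to any other of the 10, for which the share ran from 0.328% (Tgm3) to 4.09% (Sbsn). The 5 were those of Ppl with Tgm1, Tgm3, Tgm5, Evpl and Scel, all with less Ppl in Grhl3 KO. Tgm1 counts per Ppl count, for example, ran from 2.84 to 3.99 in Grhl3 KO and from 1.23 to 2.45 in wild type. For Tgm3 counts per Ppl count the groups almost touched, with 3.37 to 6.47 in Grhl3 KO and 1.48 to 3.33 in wild type. The ratios share Ppl and the same libraries and are not independent of each other.

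Sbsn encodes suprabasin, a secreted protein of the suprabasal layers that transglutaminases can crosslink. It was at 223, 381, 312, 261 and 519.8 CPM in Grhl3 KO and at 774, 311, 770.0, 784 and 912 CPM in wild type. The wild-type libraries lay above all Grhl3 KO libraries except for 1048, whose value was close to the Grhl3 KO median. The means of 339.6 ± 117 and 710.2 ± 231 CPM (SD, n = 5 each) gave a log2 fold change of -1.06 (SE 0.30, 95% limits -1.72 to -0.41), 2.09-fold lower in Grhl3 KO. The unadjusted p of 0.00434 ranked 140 of 13731, and the edgeR adjusted p was 0.426. DESeq2 gave -1.07 with an adjusted p of 0.0369, the only setting in which any of the 10 genes passed. The log2 fold change was nearer to 0, at -0.67, when only libraries numbered 1026 to 1048 were used (edgeR adjusted p = 0.835), and farther from it, at -1.25, without wild-type library 1048 (0.125).

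Krtdap, which encodes another small secreted protein of suprabasal keratinocytes, was the most abundant of the 10. It was at 1414, 1779, 1581, 1295 and 2398 CPM in Grhl3 KO and at 4023, 1025, 2713, 2741 and 1910.1 CPM in wild type. Wild-type libraries 1028, 1528 and 1555 were above every Grhl3 KO library and 1048 below every one. The log2 fold change was -0.55 (SE 0.31, 95% limits -1.24 to 0.14, unadjusted p = 0.106, edgeR adjusted p = 0.778). Leaving out wild-type library 1028 gave -0.31, and leaving out 1048 gave -0.75.

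**Figure D3:**
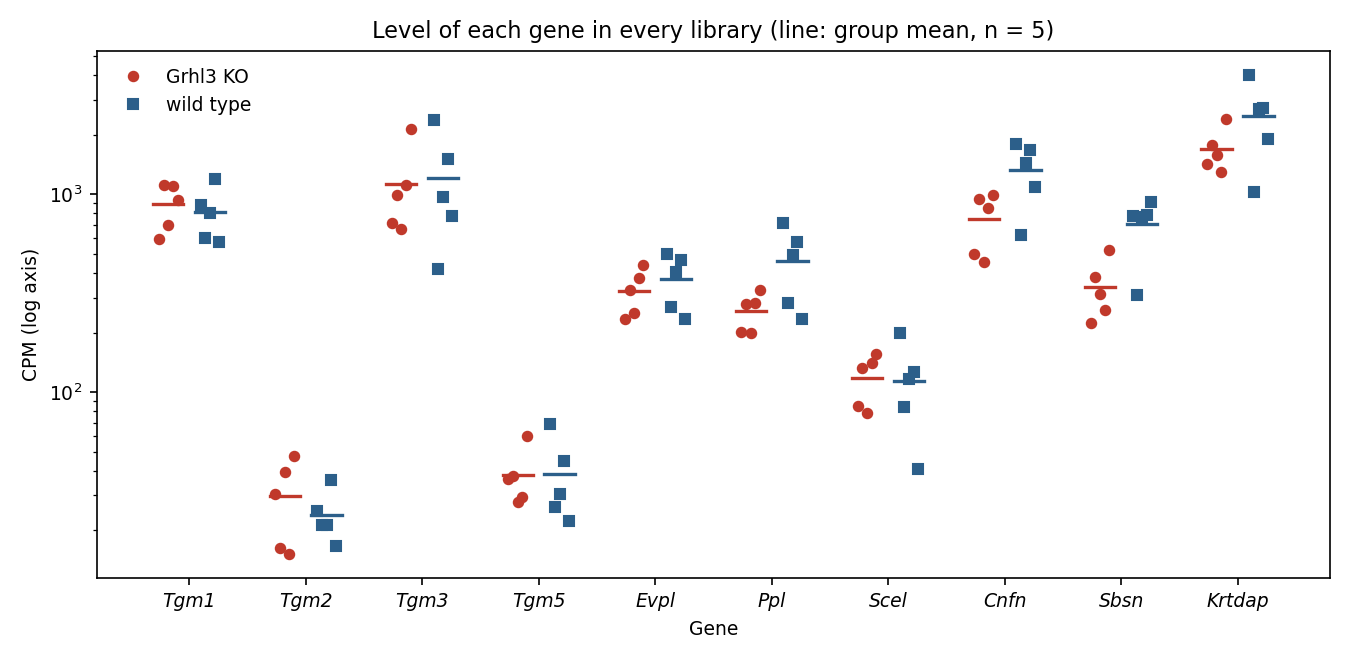
CPM of each gene in every library on a log axis (circles, Grhl3 KO; squares, wild type; lines, group means, n = 5). Every gene has overlapping groups; in Sbsn and Cnfn all wild-type libraries but 1048 (311 and 622 CPM) lie above the Grhl3 KO libraries.

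Per kb of exon, the mean level over the 10 libraries went from Krtdap (3075 CPM per kb) and Cnfn (1442) through Tgm3 (282), Tgm1 (269) and Sbsn (145) to Evpl (54.8), Ppl (52.0) and Scel (46.3), and then to Tgm5 (12.2) and Tgm2 (5.84). Krtdap was above Cnfn, and Cnfn above Tgm3, in 10 of 10 libraries. Tgm3 and Tgm1 could not be ordered, since Tgm3 was the higher in 3 libraries. Evpl, Ppl and Scel were close, and their order differed between the groups. Ppl was below Evpl and below Scel in 5 of 5 Grhl3 KO libraries; in wild type it was above Scel in 5 of 5, and Evpl was above it in 2 of 5. In Grhl3 KO the order of the means was Evpl (51.0 ± 13.3 CPM per kb), Scel (47.3 ± 13.8) and Ppl (37.4 ± 8.21); in wild type it was Ppl (66.6 ± 29.1), Evpl (58.6 ± 18.5) and Scel (45.3 ± 23.3).

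The genes varied together from library to library. The 10 genes made up between 0.392% and 1.03% of all counts of a library. In Grhl3 KO library 1043 and wild-type libraries 1028 and 1555, all 10 were above their median over the libraries, and wild-type library 1028 was the highest for 7 of them. Wild-type library 1561 was the lowest for 4 but the highest for 1 (Sbsn, 912 CPM). Of the 45 correlations between pairs of the genes (log2 CPM, 10 libraries), 44 were positive, and 17 passed an adjusted permutation p of 0.05 by Pearson's r and 11 by Spearman's rho, with adjustment over 55 relations. In the 36 pairs without Tgm2 the median r was 0.70. The libraries of a pair share depth and cell make-up, whose part was not tested. The share of all gene pairs that would pass was not computed, so these counts do not set the 10 genes apart from others. Genes outside the 10 with r above 0.9 numbered from 11 of 13070 for Tgm1 to 60 of 13070 for Tgm2.

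Evpl and Ppl were related at r = 0.88 (permutation, adjusted p = 0.0078) and rho = 0.90 (adjusted p = 0.0213). The r was 0.86 without the 2 libraries farthest from the median of Evpl (adjusted p = 0.0728, permutation) and 0.86 in the 7 libraries numbered 1026 to 1048. Ppl and Cnfn had r = 0.89 and rho = 0.83 (permutation, adjusted p = 0.0097 and 0.0236), with r = 0.80 and 0.94 in the smaller sets. Tgm3 and Tgm5 had r = 0.86 and rho = 0.82 (permutation, adjusted p = 0.0128 and 0.0251), with r = 0.82 and 0.90. Without the 2 farthest libraries neither passed (permutation, adjusted p = 0.0794 each). The pair that moved least together, apart from those with Tgm2, was Scel and Sbsn (r = 0.02, permutation adjusted p = 0.981), yet its r was 0.78 in the libraries numbered 1026 to 1048.

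The correlation of Grhl3 RNA was positive with all 10 genes, and 5 passed by both r and rho: Tgm3 (r = 0.89, rho = 0.88), Scel (0.87, 0.89), Tgm5 (0.85, 0.85), Evpl (0.85, 0.87) and Tgm1 (0.81, 0.77), with adjusted permutation p of r between 0.0078 and 0.0256. Without the 2 libraries farthest from the median of the first gene, r was 0.81, 0.81, 0.71, 0.76 and 0.73 in that order, and no adjusted permutation p was under 0.05 with these 8 libraries. For Ppl, Cnfn and Sbsn, which had the lowest p between the groups, r with Grhl3 was 0.61, 0.51 and 0.22 over the 10 libraries. In the 7 libraries numbered 1026 to 1048 it was 0.69, 0.81 and 0.79, and none of these 3 passed. There r was 0.95 for Tgm3, 0.90 for Scel and 0.90 for Evpl (permutation, adjusted p = 0.0205, 0.0282 and 0.0306). It was 0.79 for Tgm5 and 0.75 for Tgm1, which did not pass (permutation, adjusted p = 0.0685 and 0.0961). Krtdap had 0.86 (permutation, adjusted p = 0.0321) and Tgm2 0.12. The share of all genes tested that would pass with Grhl3 was not computed.

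**Figure D4:**
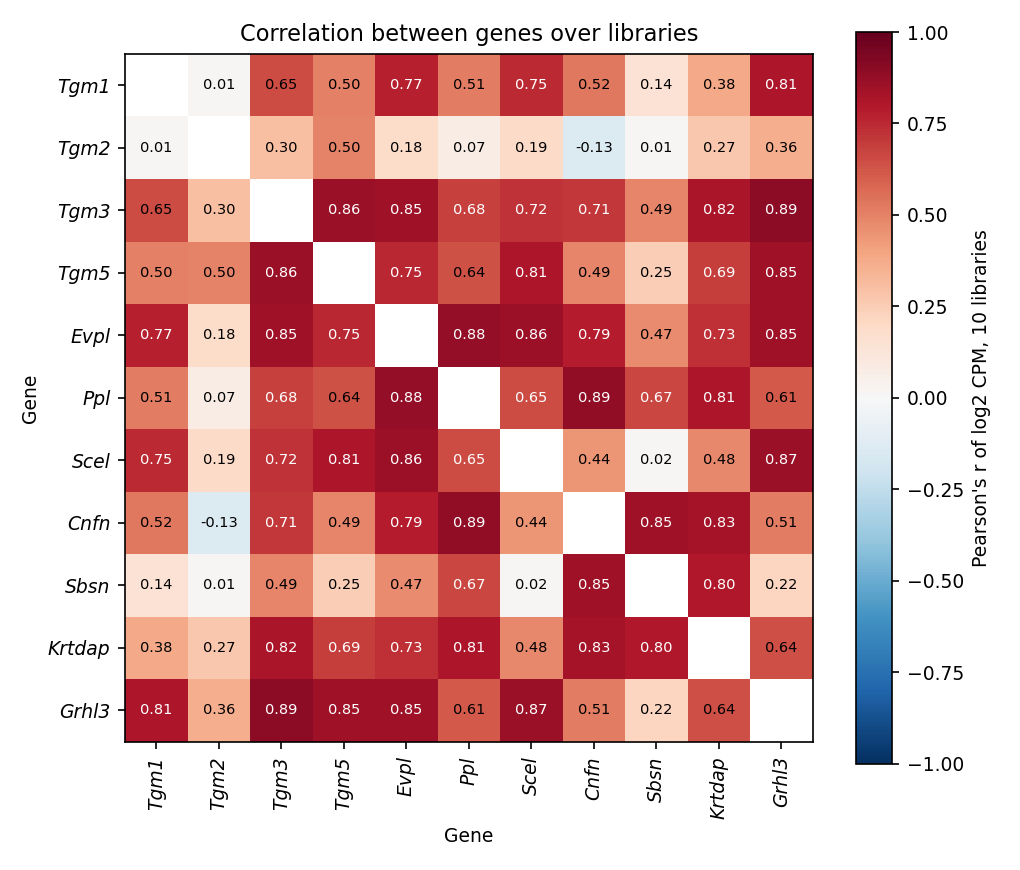
Pearson's r of log2 CPM over the 10 libraries for each pair of the 10 genes and Grhl3 (colour and printed value; both axes list the genes). Apart from the row of Tgm2 (r from -0.13 to 0.50), all values are positive, up to 0.89.

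Tgm2 stood outside this pattern and none of its 9 correlations with the other genes passed. It tracked the skeletal muscle markers, a relation examined after the data had been seen. The summed level of the 20 markers was 3805, 1027, 2473, 844 and 6256 CPM in the Grhl3 KO libraries and 1756, 1452, 1533, 3234 and 1669 CPM in the wild-type libraries. Grhl3 KO libraries 1043, 1026 and 1035 and wild-type library 1555, the highest in Tgm2, were also the highest in these markers. With the mean log2 CPM of the markers, Tgm2 had r = 0.91 and rho = 0.92 (10 libraries, permutation, adjusted p = 0.0028 and 0.0055 over 10 relations), and r was 0.90 without libraries 1026 and 1043 and 0.94 in the libraries numbered 1026 to 1048. For the other 9 genes r lay between -0.12 and 0.47, and the smallest adjusted permutation p was 0.873. With the marker level as a term, the log2 fold change of Tgm2 was 0.02 in place of 0.31. The most abundant markers were Acta1 and Myh1, and 18 of the 20 were tested, all with a fitted value above 0 (median log2 fold change 0.57) and 0 called by edgeR, DESeq2 or limma voom or with an unadjusted p under 0.05. Myl1 and Mylpf had the smallest p of the list (log2 fold change 1.02 and 0.83, edgeR adjusted p = 0.719 and 0.763).

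**Figure D5:**
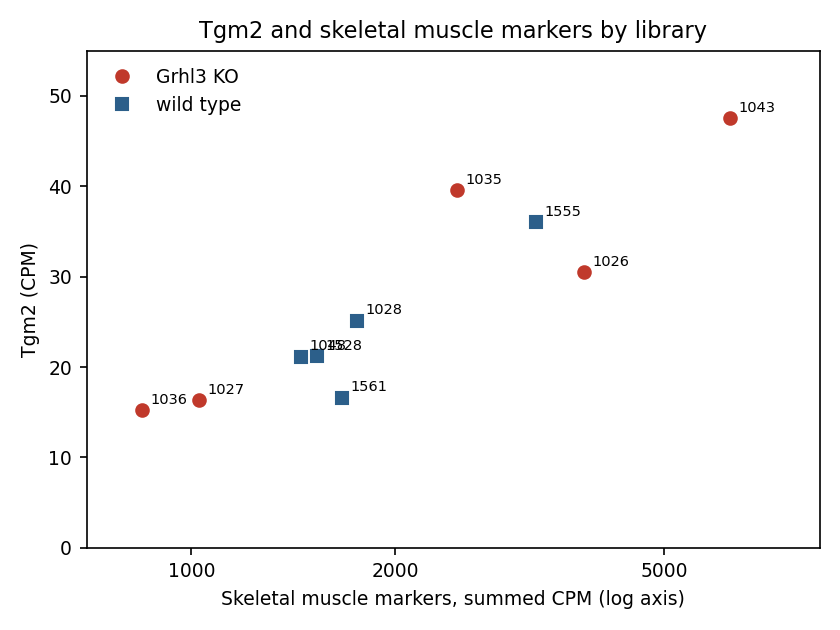
Tgm2 level in CPM (y axis) against the summed CPM of 20 skeletal muscle markers (x axis, log scale) in each library (circles, Grhl3 KO; squares, wild type; labels, sample numbers). Tgm2 runs from 15.2 CPM at 844 CPM of markers to 47.5 CPM at 6256 CPM.

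The genes closest in pattern to each gene were sought among all genes tested with a mean of at least 1 CPM (Pearson's r over 10 libraries, without a test). Some of them are known from squamous or muscle tissue by background knowledge, and others are not. Tgm2 was closest to Trim72, Mylk2 and Cacng1 (0.95 each), all known from skeletal muscle. Ppl was closest to Sprr3, a small proline-rich envelope protein (0.97), Mocos (0.97) and Gm9790 (0.97). Cnfn was closest to Tspan5 (0.98), Phldb3 (0.97) and Sprr1b (0.96), another small proline-rich protein. Tgm3 was closest to Uqcr10 (0.95), Alox12b (0.94), a lipoxygenase of the skin barrier, and Dmkn (0.94), and Krtdap to Aspg (0.95), Elovl4 (0.94) and Eef1d (0.94). Evpl was closest to Pcdh1 (0.97), Dctn6 (0.96) and Mvk (0.96), and Tgm1 to Hip1r (0.94), S100a7a (0.93) and Fam129b (0.93). The nearest to Tgm5 were Pla2g12a, Tom1l2 and Sytl1 (0.95 each), to Scel Ormdl2 (0.96), Rab5a (0.95) and Atp6v0d1 (0.95), and to Sbsn Psmd4 (0.95), Cnbp (0.93) and Trex2 (0.92).

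Sbsn and Krtdap are neighbours on chromosome 7 of GRCm38, on the plus strand at chr7:30751471-30756134 and chr7:30787896-30791097. Dmkn, which encodes dermokine, lies between them, 7.62 kb from Sbsn and 6.83 kb from Krtdap. Sbsn and Krtdap varied together (r = 0.80, rho = 0.82, permutation, adjusted p = 0.0256 and 0.0251; r = 0.92 without the 2 farthest libraries). Dmkn was at 2347 ± 461 CPM in the Grhl3 KO and at 2447 ± 1011 CPM in the wild-type libraries (SD, n = 5 each), with a log2 difference of -0.06 (edgeR adjusted p = 0.984). Of Sbsn's longest transcript, 11.4% matched Tmem147os, whose exons it overlaps on the same strand, so that its counts are uncertain to that extent.

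The promoters of these genes, 250 bases before the start of the transcript, were read from RefSeq for GRCm38.p6, in which 7 of the 10 genes were matched. They were searched on both strands for the grainyhead sites AACCGGTT and AACNNGTT, the AP-1 pattern TGANTCA and the TATA box TATAAA. N stands for any base. AACCGGTT occurred in 0.116% of 32851 promoters of this length and AACNNGTT, which contains it, in 3.64%; neither was in the 8 promoters of the 7 genes. TGANTCA, found in 6.75% of all promoters, was in those of Sbsn, Krtdap and Scel, and TATAAA, found in 12.4%, in those of Krtdap and Tgm3. A match describes the letters and not a bound site. These 4 promoters are shown from 5′ to 3′ with the matches in capitals. Sbsn and Krtdap are shown because the neighbours varied together, and Scel because it also matches TGANTCA. Read on the opposite strand, the TGACTCA of Scel is the TGAGTCA of Krtdap, whereas Sbsn has TGAATCA. Tgm3 is shown because it was the transglutaminase most closely tied to Krtdap (r = 0.82).
Sbsn, chr7:30751221-30751470, plus strand: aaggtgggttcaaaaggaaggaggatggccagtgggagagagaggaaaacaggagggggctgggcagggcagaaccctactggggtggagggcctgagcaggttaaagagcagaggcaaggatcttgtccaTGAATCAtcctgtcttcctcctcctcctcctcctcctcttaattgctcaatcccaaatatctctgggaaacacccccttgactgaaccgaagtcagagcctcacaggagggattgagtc
Krtdap, chr7:30787655-30787904, plus strand: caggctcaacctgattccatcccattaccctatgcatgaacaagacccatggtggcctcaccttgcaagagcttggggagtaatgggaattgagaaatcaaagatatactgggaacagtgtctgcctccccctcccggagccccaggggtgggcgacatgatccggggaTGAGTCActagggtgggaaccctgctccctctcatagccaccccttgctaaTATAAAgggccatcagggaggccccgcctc
Scel, chr14:103513091-103513340, plus strand: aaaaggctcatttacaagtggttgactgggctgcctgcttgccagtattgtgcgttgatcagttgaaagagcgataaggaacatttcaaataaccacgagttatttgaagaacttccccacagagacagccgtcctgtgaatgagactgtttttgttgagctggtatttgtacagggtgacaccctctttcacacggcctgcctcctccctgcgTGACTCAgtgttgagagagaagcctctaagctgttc
Tgm3, chr2:130012090-130012339, plus strand: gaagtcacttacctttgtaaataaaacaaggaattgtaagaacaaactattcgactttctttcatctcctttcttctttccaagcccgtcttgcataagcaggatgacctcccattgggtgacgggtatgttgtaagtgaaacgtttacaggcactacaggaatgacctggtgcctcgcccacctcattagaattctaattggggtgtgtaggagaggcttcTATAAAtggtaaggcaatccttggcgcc
The matches to TGANTCA begin 119 bases before the start in Sbsn, 81 in Krtdap and 36 in Scel. The TATA letters begin 30 bases before the start in Krtdap and 28 in Tgm3.

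The other members lie at chr14:55700009-55713926 (Tgm1), chr2:158116402-158146436 (Tgm2), chr2:121046111-121085841 (Tgm5), chr11:116220559-116238077 (Evpl), chr16:5086291-5132421 (Ppl) and chr7:25367620-25369724 (Cnfn), all on the minus strand, and at chr2:130012349-130050399 (Tgm3) and chr14:103513342-103612797 (Scel) on the plus strand, by the GENCODE annotation of GRCm38. Tgm5 lies 7.72 kb from Tgm7 and Tgm3 62.0 kb from Tgm6. Counts are for whole genes and do not separate transcripts of a gene. For Tgm1 and Tgm2, 6.42% and 22.6% of the longest transcript match exons of genes on the opposite strand (Gm49067 for Tgm1, Rprd1b and Gm20412 for Tgm2), which reads counted with strand would keep apart.

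The proteins that the transglutaminases crosslink were described through a list of 55 envelope proteins, of which 50 were tested, 21 with a fitted value above 0 and 29 below. An unadjusted edgeR p under 0.05 was found for 14 of the 50 (28.0%, against 7.16% of all genes tested), 6 higher and 8 lower in Grhl3 KO. The list was chosen with earlier results of these data known, so that this share is no test of the list. The small proline-rich genes were on both sides, with Sprr2e, Sprr2f and Sprr2g at 1.01, 1.36 and 1.12 on the log2 scale and Sprr1b, Sprr2j-ps, Sprr2k and Sprr3 at -1.09, -1.41, -2.995 and -1.13; genes of this family can share reads, so that their counts are uncertain. By edgeR 1 passed the adjusted threshold: Krt1, a keratin of the cornifying epidermis, rose to 200.3 ± 97.7 CPM in Grhl3 KO from 24.2 ± 11.2 CPM in wild type (log2 fold change 3.05, SE 0.43, edgeR adjusted p = 0.0358). The call did not hold in 9 of the 10 fits that left out 1 library (edgeR adjusted p up to 0.127, and 0.0322 without Grhl3 KO library 1026), with limma voom (0.0892), without a filter (edgeR adjusted p = 0.0644), or with the number series alone or as a term (0.416 and 0.526), while the log2 fold change stayed between 2.84 and 3.28. The groups did not overlap in 4 of the 50, beside 1.35% of all genes tested: in Krt1, higher in Grhl3 KO, and in Hrnr, Sprr2k and S100a11, lower. Hrnr, a filaggrin-like protein, was at 2.36 ± 1.38 and 41.5 ± 58.5 CPM (log2 fold change -4.19, SE 0.90, edgeR adjusted p = 0.206). Its highest library held 145 CPM, and without wild-type library 1528 the log2 fold change was -2.76 (edgeR adjusted p = 0.239). The list's median log2 fold change was -0.24, against -0.00 over all genes tested. The substrates Sprr3 and Sprr1b, among the nearest in pattern to Ppl and Cnfn, had edgeR adjusted p of 0.504 and 0.478.

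Of 7 tested genes in the list of plakins and partners of periplakin, which also held Dmkn, 1 had a fitted value above 0 and 6 below. Of these 7, edgeR called 0 (median -0.09). Those of smallest p were Dst, a plakin of hemidesmosomes (-0.24, edgeR adjusted p = 0.878), and Jup, the desmosomal plakoglobin (0.16, 0.904). Of 11 genes that process transglutaminases or carry calcium, 6 were above and 5 below 0 and 0 were called (median 0.01), with Trpv4, a calcium channel, at -0.33 (edgeR adjusted p = 0.806) and Lgmn, a protease, at 0.10 (0.897). Of 24 transcription factors of the envelope programme, 14 were above and 10 below 0 and 0 were called (median 0.08). Hopx had the smallest p of these, at 99.99 ± 35.8 CPM in the Grhl3 KO and 262 ± 99.5 CPM in the wild-type libraries (log2 fold change -1.39, edgeR adjusted p = 0.257), followed by Grhl1 (0.60, 0.692); these 2 were those with an unadjusted p under 0.05. In the lists of plakins and of processing genes 0 had one. DESeq2 called Hopx, and of the substrates Krt1, Hrnr and Sprr2k, and limma voom called none in these lists.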

How the data were processed

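RNA-seq libraries were made with a stranded mRNA kit, per the labels' protocols. The authors deposited whole-number counts per protein-coding gene, not normalized. The counter was featureCounts and the build GRCm38, per the submitters' processing notes; the aligner, the annotation release and the treatment of multiply matching reads were not given in the sources used here. By its name, the deposited file holds reverse-stranded counts. Table columns were joined to samples by sample number. Genes were kept by filterByExpr in edgeR 4.0.16 (R 4.3.3; minimum count 10, minimum total 15), leaving 13731 of 22740. Counts were scaled by TMM and compared by the robust quasi-likelihood F-test of edgeR, with Benjamini-Hochberg adjustment over all genes tested and a threshold of 0.05. All 10 libraries entered with no covariate. CPM values use TMM-scaled totals, and log2 CPM a prior count of 2. Per-length levels use the exon union. Correlations over all 10 libraries used 100000 random two-sided permutations, and those over the smaller sets of libraries used every possible permutation. Nothing beyond the labels' 5 mice per group describes the replicates, so p-values measure the spread between these samples. The test was tried on simulated data.

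The members and gene lists were chosen with earlier results of these data known. Named genes were all 10 members, Grhl3, the 2 of smallest p of each other list, the 2 most abundant of each marker list, any gene past the threshold and the 3 closest in pattern to each member. The Sprr genes, S100a11, Tgm6 and Dmkn were also named for their group overlap, unadjusted p, level, pattern or position after their values were seen. Alternatives were other scalings, DESeq2 1.42.0, limma voom (limma 3.58.1), other filters, leaving out each library, the number series (1026 to 1048 alone, or as a term) and marker levels as terms; the Evpl level as a term, the muscle relations and the ratios were added after the data were seen. Non-coding genes were not analysed here.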

Additional observations from a re-analysis of the deposited data

Results flagged for a closer look

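Sbsn in wild-type library 1048 stood far below the other 4 wild-type libraries, at 311 CPM against 770.0 CPM in the nearest and 912 CPM in the highest. The gap to the nearest library was 0.763 of the group's whole range. Of 20 groups examined (10 genes in each of the Grhl3 KO and wild-type groups), 1 held such a library, and chance gives about 1 in 20. The same library was the lowest of the wild-type group for Tgm3, Cnfn and Krtdap (419, 622 and 1025 CPM). Without it, the log2 fold change of Sbsn was -1.25 in place of -1.06, and the edgeR adjusted p was 0.125 in place of 0.426.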

How the results depend on the processing

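The groups overlap in each of the 10 genes, and 5 libraries a group give wide limits; Y-linked RNA, tissue label and the number series (3 of 5 wild-type libraries outside 1026 to 1048) differ between the groups, and their part was not tested except for the series. The number of genes called moved from 11 to 118 with DESeq2 (57 higher, 61 lower), 1 with limma voom, 7 with no filter, 1 with the series 1026 to 1048 alone, 1 with the series as a term and 53 with the Evpl level as a term (39 higher, 14 lower); leaving out each library gave 1 to 16. Members called were 0 in all of these but DESeq2, with 1 (Sbsn). Among the 53 genes called with the Evpl level as a term were Hopx (-1.18) and Grhl1 (0.82, edgeR adjusted p = 0.0404 each). The fit without this term did not call them. The log2 fold changes of Tgm1, Tgm2, Evpl, Ppl, Cnfn, Sbsn and Krtdap kept their sign under every alternative. Values of the opposite sign, whose cause was not tested, were 0.021 (limma voom) and 0.22 (Evpl term) for Tgm3; 0.023 (limma voom), 0.070 (pan-epithelial term) and 0.24 (Evpl term) for Tgm5; and, for the series alone and as a term, -0.26 and -0.26 for Scel, -0.10 and -0.10 for Grhl3, -0.13 and -0.14 for F13a1, 0.023 and 0.022 for Trpv4 and -0.016 and -0.018 for Lgmn. Leaving out each library gave -0.47 to 0.29 for Tgm3, -0.24 to 0.29 for Tgm5, -0.15 to 0.36 for Scel, -0.056 to 0.41 for Grhl3 and -0.077 to 0.32 for F13a1. Correlations of the opposite sign were those of Tgm1 with Tgm2 (-0.40 without the 2 farthest libraries, -0.41 in the series), of Tgm2 with Evpl (-0.051), Ppl (-0.12) and Scel (-0.16) in the series, of Tgm2 with Cnfn (0.16) and of Tgm5 with Sbsn (-0.055) without the 2 farthest libraries. No paired analysis was possible because the groups share no sample number.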

Other observations

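Marker lists of the cell types that oesophageal tissue can hold were read from the same fit, and edgeR called 0 genes in each of them except the mesothelium list. DESeq2 called the same 1 gene and limma voom 0; at an unadjusted p under 0.05 there was 1 further gene in each of the basal, pan-epithelial and smooth muscle lists (Pdpn, Elf3 and Smtn). That exception was Msln (mesothelin), which rose to 4.30 ± 1.38 CPM in Grhl3 KO from 1.10 ± 0.23 CPM in wild type (SD, n = 5 each; log2 fold change 1.97, SE 0.28, edgeR adjusted p = 0.0358), while Upk3b, Wt1 and Lrrn4 were under the filter. This call did not hold in 9 of the 10 fits that left out 1 library (edgeR adjusted p up to 0.127, and 0.0300 without Grhl3 KO library 1026), with limma voom (0.0961), or with the number series alone or as a term (edgeR adjusted p = 0.475 and 0.415), while the log2 fold change stayed between 1.77 and 2.10. Basal keratinocyte markers, led by Krt14 and Krt5, were above 0 in 1 of 8 and below in 7 (median log2 fold change -0.25), with Pdpn at -1.44 and Trp63 at -0.18 (edgeR adjusted p = 0.548 and 0.792). Pan-epithelial markers were above 0 in 3 of 14 (median -0.07), with Elf3 at 0.75 and Cdh1 at -0.27 (0.556 and 0.787). Smooth muscle markers, led by Acta2 and Des, were above 0 in 2 of 9 (median -0.60), with Smtn at 0.35 and Myl9 at -0.76 (0.622 and 0.776). Fibroblast markers, led by Col3a1 and Col1a1, were above 0 in 7 of 9 (median 0.29), with Fbln1 at 0.38 and Dcn at 0.81 (0.729 and 0.792). Endothelial markers, led by Pecam1 and Plvap, were above 0 in 7 of 10 (median 0.06), with Tek at 0.35 and Tie1 at 0.23 (0.847 and 0.874). Macrophage markers, led by Cd14 and Cd68, were above 0 in 5 of 8 (median 0.16), with Mrc1 at 0.52 and C1qc at 0.32 (0.760 and 0.795). Leukocyte markers, led by S100a9 and S100a8, which squamous cells also express, were above 0 in 2 of 6 (median -0.14), with S100a9 at -0.36 and Cd3e at 0.34 (0.947 and 0.950). Of the gland list Aqp5 and Krt7 were tested (0.61 and 0.23, edgeR adjusted p = 0.908 and 0.984), and of the hair follicle list Tchh (0.69, 0.763), with Scd3 next in abundance. Of the Y-linked list, Kdm5d and Uty had the smallest p (1.32 and 1.22, edgeR adjusted p = 0.842 and 0.863).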
